A study of Mus musculus with 12 samples.

Results

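H3K27me3, the trimethyl mark on lysine 27 of histone H3, was compared between THC-treated and control mouse mammary tumour organoids by CUT&Tag. The comparison uses 4 of the 12 libraries of the series, namely Ctrl replicates 1 and 2 and THC replicates 1 and 2. The peaks of the 4 libraries on chromosomes 1 to 19 and X were merged at an overlap of 1 bp or more into 3616 regions, and a gene was called marked when a peak lay in it or within 5 kb of either end. Because the batches differed strongly in peak number, presence and covered length were set side by side within each replicate number, which the labels also give as the batch.

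The cells were breast cancer organoids derived from the PyMT tumour model, called tumoroids or spheroids in other labels, with the genotype given as WT in every group. They were collected 3 days after treatment with a control (Ctrl), THC or SR2, with 2 libraries per treatment and mark. The H3K4me3 libraries of the same treatments and replicate numbers served as a second readout, and the SR2 libraries as the comparison most like this one. Doses, the control agent and what SR2 stands for are not given in the sources used here. The labels name no separate lines, passages or animals behind the replicates, so each p-value measures only how far these libraries spread, and that spread may be technical. All groups share the PyMT origin, and no group of untransformed cells is among the samples analysed here.

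H3K27me3 is written by Polycomb repressive complex 2, whose catalytic subunits are Ezh2 and Ezh1, and is removed by the demethylases Kdm6a and Kdm6b. In differentiated cells and in tumours the mark lies over silent genes, and its broadest domains cover the Hox clusters and other genes for developmental transcription factors, most of which have promoters rich in CG dinucleotides. In embryonic stem cells many of these promoters carry H3K4me3, a mark of active or poised promoters, together with H3K27me3.

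The 4 promoters below are of the gene groups on which the comparison turns: Hoxd11 and Sox2, covered in both libraries of batch 1, and Foxl2 and Gata2, found in both Ctrl but neither THC library. Each is the stretch of 250 bases upstream of an annotated start, on the plus strand of GRCm38.p6 (the assembly of mm10), from RefSeq, with every CG dinucleotide in capitals. For Sox2, Foxl2 and Gata2 that start is the first base of the gene. For Hoxd11 it lies inside the span of the gene. The positions are chr2:74682073-74682322 for Hoxd11, chr3:34649745-34649994 for Sox2, chr9:98955357-98955606 for Foxl2 and chr6:88193641-88193890 for Gata2.
Hoxd11: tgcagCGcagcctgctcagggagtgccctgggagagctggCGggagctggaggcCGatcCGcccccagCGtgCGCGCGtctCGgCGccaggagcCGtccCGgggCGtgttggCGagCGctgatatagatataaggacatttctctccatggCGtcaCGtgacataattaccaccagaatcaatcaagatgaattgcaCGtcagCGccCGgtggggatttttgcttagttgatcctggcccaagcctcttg
Sox2: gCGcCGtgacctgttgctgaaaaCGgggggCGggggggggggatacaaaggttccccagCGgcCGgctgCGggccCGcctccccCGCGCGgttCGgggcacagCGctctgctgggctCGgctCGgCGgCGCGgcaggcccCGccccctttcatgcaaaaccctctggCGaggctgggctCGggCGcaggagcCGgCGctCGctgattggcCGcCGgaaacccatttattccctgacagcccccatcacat
Foxl2: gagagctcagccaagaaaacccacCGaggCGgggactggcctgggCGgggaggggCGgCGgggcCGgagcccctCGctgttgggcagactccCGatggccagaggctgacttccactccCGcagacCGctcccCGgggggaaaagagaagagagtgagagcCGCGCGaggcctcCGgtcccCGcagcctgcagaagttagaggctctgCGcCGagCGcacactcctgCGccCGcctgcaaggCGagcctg
Gata2: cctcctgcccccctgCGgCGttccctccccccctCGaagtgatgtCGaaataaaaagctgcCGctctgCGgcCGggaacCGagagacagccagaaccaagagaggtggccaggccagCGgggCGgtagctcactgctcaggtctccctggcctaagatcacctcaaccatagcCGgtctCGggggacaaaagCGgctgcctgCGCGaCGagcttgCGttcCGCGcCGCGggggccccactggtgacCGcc

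The Hoxd11 stretch held 20 CG dinucleotides, the Sox2 stretch 27, and those of Foxl2 and Gata2 22 each. Of 21044 such stretches at protein-coding genes, 24.0% held at least as many as Hoxd11, 11.1% at least as many as Sox2 and 19.7% at least as many as Foxl2 or Gata2. The motif searched was CG, which reads the same on both strands. In the window from 250 bases before to 50 bases after the start, H3K27me3 covered all 300 bp at Sox2 in Ctrl replicate 1 and in THC replicate 1, and none in either library of batch 2. At Hoxd11 it covered 300 bp in Ctrl replicate 1 and 239 bp in THC replicate 1. Foxl2 had 300 bp covered in Ctrl replicate 1 alone, and Gata2 had 300 and 105 bp in the Ctrl libraries and none in the THC libraries.

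Over all promoters, the sequence class under the mark was alike in the first Ctrl and THC libraries. The 545 promoter windows with H3K27me3 in Ctrl replicate 1 had a median of 20 CG dinucleotides upstream of the start, and so did the 255 windows of THC replicate 1, against a median of 10 over all 21044 windows. The 42 windows of Ctrl replicate 2 had a median of 21.5. THC replicate 2 covered 3 windows, with a median of 7, so its mark hardly reached promoters.

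Peak number was lower in the THC library than in the Ctrl library of each batch. Ctrl replicate 1 had 2708 peaks, THC replicate 1 had 983, Ctrl replicate 2 had 386 and THC replicate 2 had 70. These are bulk libraries, in which a mark in fewer cells and a weaker mark in each cell cannot be told apart. The THC to Ctrl ratio was 0.363 in batch 1 and 0.181 in batch 2. The groups overlapped, because THC replicate 1 had more peaks than Ctrl replicate 2, and the ratio of the means was 0.340 (two-sided exact permutation test, p = 0.667, with 0.333 the smallest p that 2 against 2 libraries allow). Without Ctrl replicate 1, by far the longest list, the ratio of means turned round to 1.36, with both THC libraries set against Ctrl replicate 2 alone.

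Covered length followed peak number, since peaks were of similar length. The peaks covered 1225 kb in Ctrl replicate 1, 459 kb in THC replicate 1, 199 kb in Ctrl replicate 2 and 36.2 kb in THC replicate 2. The within-batch ratios were 0.374 and 0.182 and the ratio of means was 0.348 (exact permutation test, p = 0.667), which became 1.25 without Ctrl replicate 1. Median peak length was 343.5 and 377 bp in the Ctrl libraries and 337 and 352 bp in the THC libraries. Domains over 1 kb made up 6.17% and 9.59% of the Ctrl peaks and 6.51% and 5.71% of the THC peaks. They numbered 167 and 37 in Ctrl and 64 and 4 in THC. The 4 of THC replicate 2, of 5539, 1917, 1636 and 1535 bp, all lay in regions that were marked in all 4 libraries.

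The lists also differ in what lies beneath the peaks. The authors' peak lists give a fold enrichment and a −log10 p for every peak, and from these 2 values the fragment pileup and its local background can be solved for under the assumption that p is a Poisson tail and that 1 was added to pileup and background in the fold. The settings of the peak caller are not given in the sources used here. The lowest background, the genome-wide floor shared by many peaks, was 0.685 fragments in Ctrl replicate 1 and 2.34 in THC replicate 1, or 3.42 times higher in the THC library. In batch 2 it was 1.26 in Ctrl and 0.915 in THC, a ratio of 0.728. At the floor the solved pileups were whole numbers, within 0.05, for 96 of 96 and 10 of 10 peaks in the Ctrl libraries and for 18 of 21 and 9 of 9 in the THC libraries. The median peak at the floor had a pileup of 6 and 8 fragments in Ctrl and 11 and 8 in THC. The THC library thus had the higher background in batch 1 and the lower one in batch 2, while it had fewer peaks in both. The part of depth and background in the peak numbers was not tested.

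**Figure D1:**
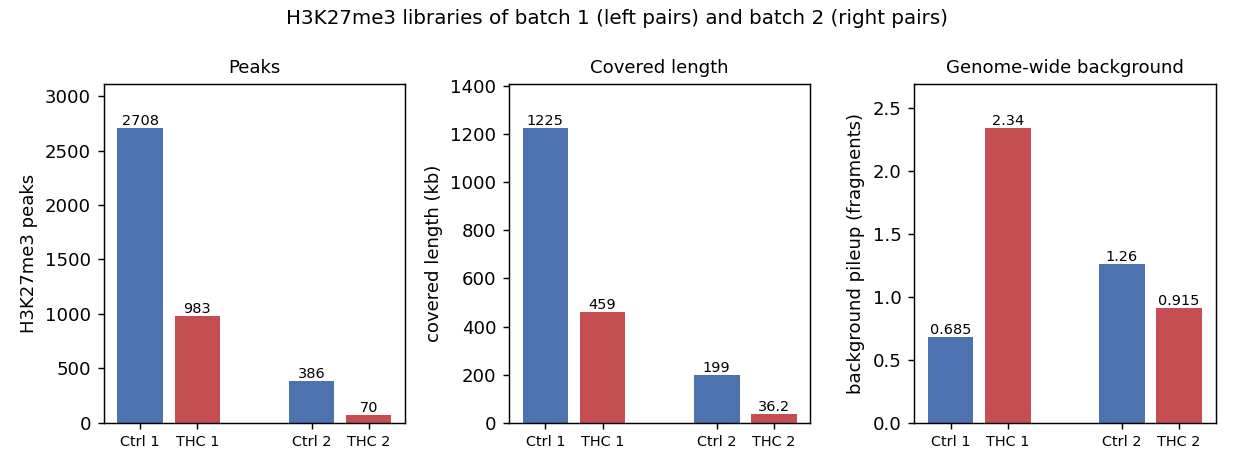
Number of H3K27me3 peaks, covered length (kb) and lowest background pileup (fragments) in each of the 4 libraries, 1 bar per library, Ctrl blue and THC red. Peaks and covered length are lower in THC within each batch (983 against 2708 peaks and 70 against 386), whereas the background is higher in THC in batch 1 (2.34 against 0.685) and lower in batch 2 (0.915 against 1.26).

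The THC list was longer than the SR2 list in batch 1 and shorter in batch 2. SR2 replicate 1 had 839 peaks and SR2 replicate 2 had 157, so that the THC to SR2 ratio of means was 1.06 (1.17 in batch 1 and 0.446 in batch 2; exact permutation test, p = 1). Both comparisons use the same Ctrl libraries.

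Most regions were marked in a single library. Of the 3616 regions, 3239 (89.6%) were found in 1 library and 377 in 2 or more. The largest classes were 2361 regions of Ctrl replicate 1 alone, 700 of THC replicate 1 alone and 172 of Ctrl replicate 2 alone. Replicates shared little: 186 regions were in both Ctrl libraries (6.87% of those of replicate 1 and 48.4% of those of replicate 2), and 42 were in both THC libraries (4.28% and 60.0%).

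Within batch 1, 253 regions were marked in both treatments, 2455 in Ctrl only and 729 in THC only. Of the 253, 170 were narrower and 79 wider in THC, with a median log2 ratio of covered bp of −0.35. Within batch 2, 46 regions were marked in both, 338 in Ctrl only and 24 in THC only. Of the 46, 33 were narrower and 12 wider, with a median log2 ratio of −0.10. Each batch has 1 library per treatment, so these counts carry no test.

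Across both batches, 73 regions were found in both Ctrl but neither THC library, and 4 the other way round. The 73 regions were of middling breadth, with a median of 466 bp in Ctrl replicate 1 and 420 bp in Ctrl replicate 2. The 71 regions that THC replicate 1 also marked were broader, with medians of 885 and 563 bp in Ctrl and 468 bp in THC replicate 1. Of the 73, 24 (32.9%) lay at a Hox gene or another developmental transcription factor gene, as did 27 (38.0%) of the 71, against 107 (4.53%) of the 2361 regions of Ctrl replicate 1 alone and 29 (4.14%) of the 700 of THC replicate 1 alone. The single-library regions were thus largely of other genes or of no gene.

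**Figure D2:**
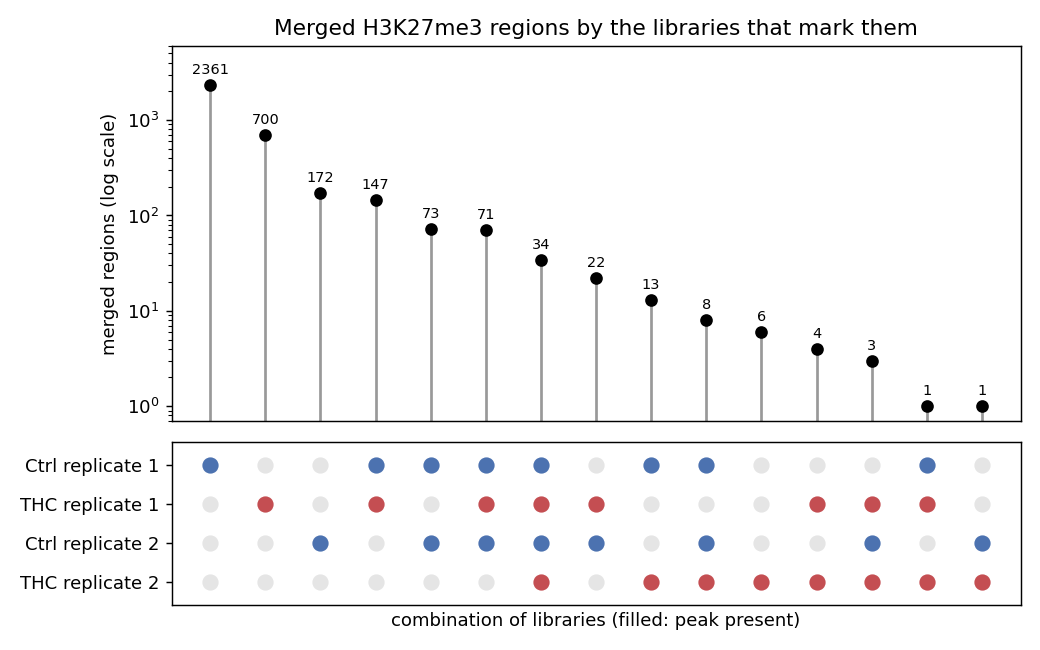
Number of merged H3K27me3 regions (log scale) for each combination of the 4 libraries, with filled circles below for the libraries that mark the region, Ctrl blue and THC red. Regions of 1 library lead (2361, 700 and 172), 73 regions are marked in both Ctrl and neither THC library, 34 in all 4 and 4 in both THC and neither Ctrl library.

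The Hox genes, which set position along the body axis and are silenced by Polycomb outside their domain, had the highest share of marked genes of any list in 3 of the 4 libraries, all but THC replicate 2. Of 39 Hox genes, 35 had H3K27me3 in Ctrl replicate 1, 27 in THC replicate 1, 23 in Ctrl replicate 2 and 0 in THC replicate 2. The share of all 21627 protein-coding genes marked in these libraries was 8.01%, 3.11%, 1.12% and 0.139%. SR2 replicates 1 and 2 marked 26 and 10 Hox genes, and 2.99% and 0.509% of all protein-coding genes. In batch 1 every Hox gene marked in THC was also marked in Ctrl, and 77.1% of those marked in Ctrl were marked in THC, against 16.2% of all protein-coding genes.

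Hoxa3 had the most covered sequence, with 5536 bp of H3K27me3 in Ctrl replicate 1, 1648 bp in THC replicate 1, 1708 bp in Ctrl replicate 2 and 0 bp in THC replicate 2 (mm10 chr6:52169059-52213067, covered bp within the gene and 5 kb of flank, here and for the genes that follow). Hoxd10 had 4398, 804, 1502 and 0 bp in the same order (chr2:74684273-74695106). Hoxd11, whose promoter is shown above, had 3826, 1180, 1804 and 0 bp (chr2:74679558-74687016). At all 3 genes Ctrl replicate 1 stood highest and THC replicate 2 had no peak, and the THC library was the lower one in each batch.

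Hoxc6 had 3280 bp in Ctrl replicate 1, 924 bp in THC replicate 1, 1540 bp in Ctrl replicate 2 and 0 bp in THC replicate 2 (chr15:102998226-103011882). Hox genes lie close together, so a domain within 5 kb of neighbours counts for each of them: Hoxc5 and Hoxc6 had the same 924 bp in THC replicate 1, and Hoxd11 and Hoxd12 the same 1180 bp. The genes of a cluster are therefore not independent observations.

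By cluster, 11 of 11 Hoxa, 8 of 10 Hoxb, 9 of 9 Hoxc and 7 of 9 Hoxd genes were marked in Ctrl replicate 1, and 8, 6, 7 and 6 in THC replicate 1. In Ctrl replicate 2 the Hoxa cluster had 8 marked genes, Hoxb 2, Hoxc 6 and Hoxd 7. The summed lengths over the genes of a cluster in batch 1 were 20.1 kb in Ctrl and 6.49 kb in THC for Hoxa, 16.4 and 6.65 kb for Hoxb, 17.3 and 5.61 kb for Hoxc and 18.5 and 5.36 kb for Hoxd. In these sums a stretch within 5 kb of several genes counts for each of them, so they are not lengths of the clusters. By these sums all 4 clusters were narrower in THC replicate 1, and none was cleared of the mark.

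**Figure D3:**
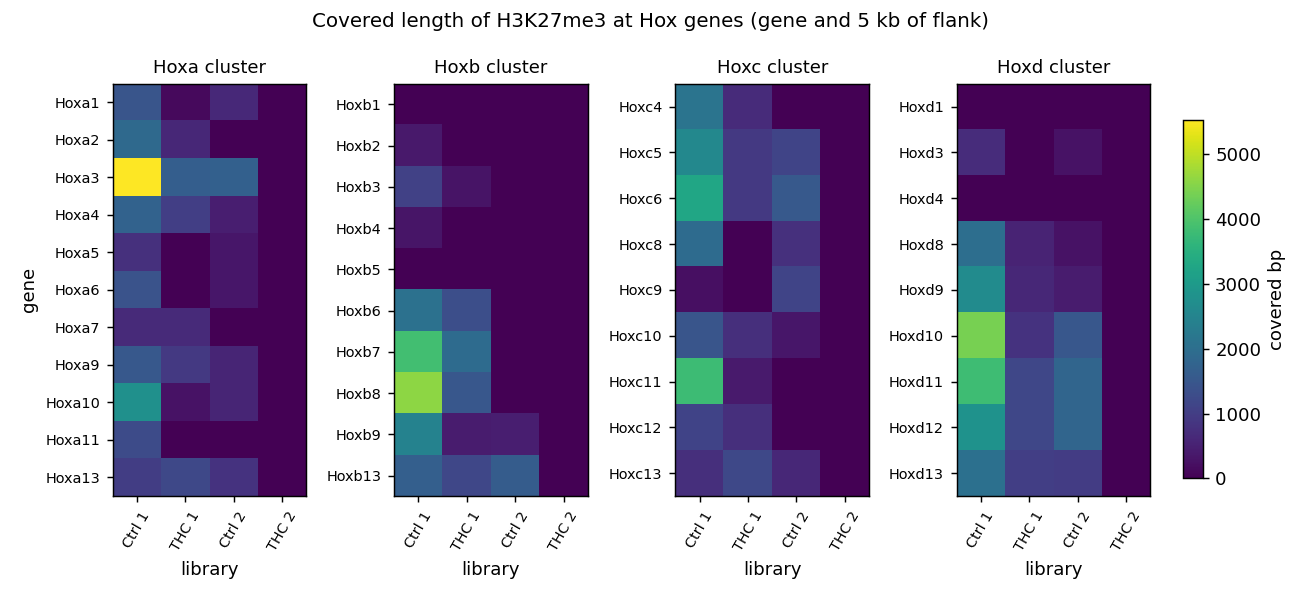
Covered length of H3K27me3 (bp, colour scale) at each of the 39 Hox genes with 5 kb of flank, 1 column per library in the order Ctrl 1, THC 1, Ctrl 2 and THC 2, genes in rows in order of their number within each cluster. The 4 clusters are brightest in Ctrl replicate 1 (5536 bp at Hoxa3), dimmer in THC replicate 1 (1648 bp at Hoxa3), and THC replicate 2 is at 0 bp throughout.

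Over the 27 Hox genes marked in both libraries of batch 1, 25 were narrower and 2 wider in THC. Their median covered length was 2065 bp in Ctrl and 924 bp in THC, and the median log2 ratio was −1.62. Over the 281 protein-coding genes marked in both libraries (1.3% of those measured), 199 were narrower and 79 wider, with a median log2 ratio of −0.58. The Hox genes that were wider in THC, named after their values were seen, were Hoxa13 (1011 bp in Ctrl replicate 1 and 1201 bp in THC replicate 1) and Hoxc13 (756 and 1200 bp), both at the 5′ end of their cluster.

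The 136 other developmental transcription factor genes followed the Hox genes at a lower level. Of these, 91 were marked in Ctrl replicate 1, 50 in THC replicate 1, 40 in Ctrl replicate 2 and 2 in THC replicate 2, and 38 and 8 in the SR2 libraries. In batch 1, 47 were marked in Ctrl only, 44 in both and 6 in THC only, whereas over all protein-coding genes 1452 (6.71%) were marked in Ctrl only and 391 (1.81%) in THC only. Of the 44, 37 were narrower and 7 wider in THC, with a median log2 ratio of −1.14 and medians of 1422.5 bp in Ctrl and 591 bp in THC. In batch 2, 38 were marked in Ctrl only, 2 in both and 0 in THC only, against 219 (1.01%), 23 (0.106%) and 7 (0.0324%) over all protein-coding genes.

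Uncx, a homeobox gene of the axial skeleton and nervous system, had 3501 bp in Ctrl replicate 1, 517 bp in THC replicate 1, 2423 bp in Ctrl replicate 2 and 0 bp in THC replicate 2 (chr5:139543865-139548179). Zic2, a zinc finger gene of the forebrain, had 3495, 1998, 1981 and 0 bp in the same order (chr14:122475384-122480328). Evx2, at the end of the Hoxd cluster, had 2879, 363, 1156 and 0 bp (chr2:74652989-74661520). At each of these 3 genes both Ctrl libraries had a broad domain, THC replicate 1 a narrower one than its Ctrl partner, and THC replicate 2 none.

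Zic5, a zinc finger gene beside Zic2, had 3140 bp in Ctrl replicate 1, 1347 bp in THC replicate 1, 722 bp in Ctrl replicate 2 and 0 bp in THC replicate 2 (chr14:122459160-122465658). Its THC library was also the narrower one in batch 1. Pax2, a kidney and ear regulator named after its values were seen, had 3059, 1207, 699 and 0 bp in the same order (chr19:44746601-44838269). Sox2 and Sox1, pluripotency and neural genes also named after their values were seen, went the other way in batch 1. Sox2 had 1604 bp in Ctrl replicate 1 and 2117 bp in THC replicate 1, and Sox1 had 885 and 1299 bp. In batch 2 they had 296 and 890 bp in Ctrl and no peak in THC.

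**Figure D4:**
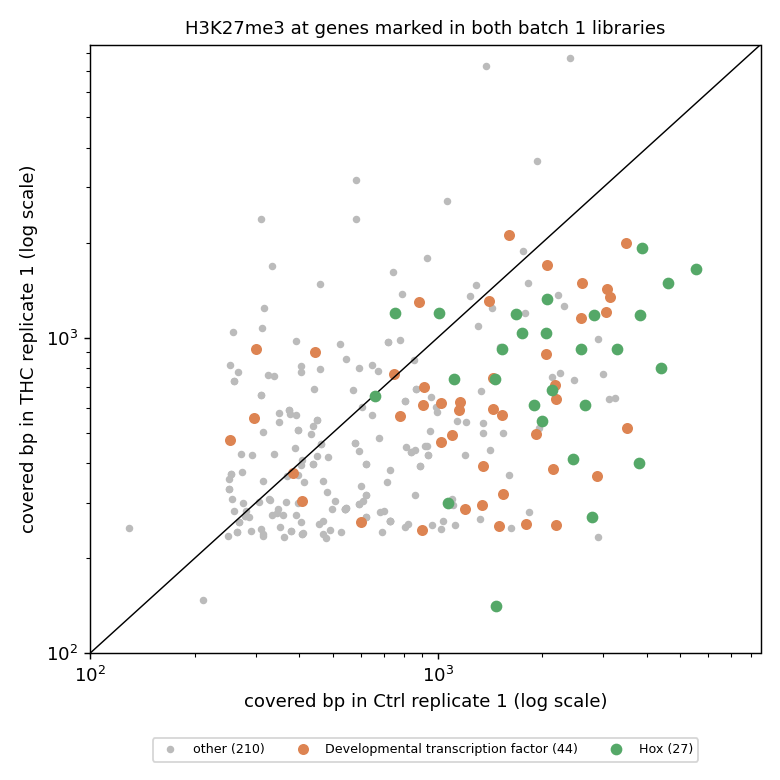
Covered bp of H3K27me3 in THC replicate 1 against Ctrl replicate 1 (log scales) for the 281 protein-coding genes marked in both, 1 point per gene, with the line of equal length. Of the 27 Hox genes (green) 25 lie below the line, and of the 44 other developmental transcription factor genes (orange) 37 lie below it.

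Over single genes, 65 protein-coding genes (0.301% of 21627) were found in both Ctrl but neither THC library, and 2 (0.00925%) the other way round. The 175 Hox and other developmental transcription factor genes supplied 19 of the 65 and 42 of the 79 (0.365%) that were marked in both Ctrl libraries and THC replicate 1. So 10.9% of these 175 genes were in the first class and 24.0% in the second. Absence from both THC libraries rested mostly on THC replicate 1. Without THC replicate 2, the library of 70 peaks, 68 genes were in both Ctrl libraries and not in THC replicate 1. Without THC replicate 1, 144 were in both Ctrl libraries and not in THC replicate 2. The reverse class rested on THC replicate 2: without it, 381 were in THC replicate 1 and neither Ctrl library.

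Of the genes marked in both Ctrl and neither THC library, the broadest were regulators of neurons and organs. Neurod2, which drives neuronal differentiation, had 2096 and 1106 bp in the Ctrl libraries (chr11:98325415-98329645). Foxl2, the ovarian forkhead gene, had 2135 and 1051 bp (chr9:98955607-98958126). Barhl2, a homeobox gene of retina and spinal cord, had 2267 and 489 bp (chr5:106452523-106458166). All 3 had 0 bp in both THC libraries, and in SR2 replicate 1 they had 401, 472 and 682 bp.

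Hoxc8 had 1931 and 763 bp in Ctrl (chr15:102990539-102994275), and Nkx6-1, needed for motor neurons and pancreatic beta cells, had 1427 and 1220 bp (chr5:101659184-101664711). Barx1, a homeobox gene of tooth and stomach, had 1866 and 504 bp (chr13:48663036-48666507). Gata2, a regulator of blood stem cells, had 1935 and 351 bp (chr6:88193891-88207032). The 4 genes had no H3K27me3 peak in either THC library, while in SR2 replicate 1 Nkx6-1 had 1313 bp, Gata2 684 bp and Hoxc8 357 bp, and in SR2 replicate 2 Barx1 had 344 bp.

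The other 3 of the 10 broadest were no transcription factors. Cdh2, which encodes the mesenchymal cadherin N-cadherin, had 1026 and 1520 bp in Ctrl (chr18:16588877-16809246). Cacna2d1, a calcium channel subunit gene, had 1200 and 869 bp (chr5:15934264-16374511), and Dock3, a gene for an activator of Rac in neurons, had 1129 and 1078 bp (chr9:106892825-107232330). They too had 0 bp in both THC libraries. In the SR2 libraries Cdh2 and Cacna2d1 had none, and Dock3 had 362 bp in replicate 2.

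The reverse class held Adk, the gene for adenosine kinase, and Ceacam15. Adk had 0 bp in both Ctrl libraries, 946 bp in THC replicate 1 and 422 bp in THC replicate 2 (chr14:21052574-21448569), with the region inside the gene at chr14:21312033-21312978. Ceacam15, of the carcinoembryonic antigen family, had 0, 0, 871 and 443 bp in the same order, from a region just outside the gene at chr7:16667900-16668770. Both had a peak in 1 SR2 library, with 437 bp for Adk in SR2 replicate 1 and 303 bp for Ceacam15 in SR2 replicate 2. The remaining 2 regions of both THC and neither Ctrl library had no gene within 5 kb.

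Among genes outside the lists that were marked in batch 1 in Ctrl only, the broadest were Onecut2 (2072 bp), Klhl14 (1973 bp), Dscaml1 (1954 bp), Nat8l (1918 bp) and Cdh22 (1818 bp). In THC only they were H2-T3 (1555 bp), Olfr212 (1296 bp), Dnajb11 (1272 bp), Ppp3ca (1151 bp) and Zfp993 (1107 bp). None of the 10 had a peak in either library of batch 2. Onecut2 encodes a homeobox transcription factor, H2-T3 a nonclassical major histocompatibility protein, Olfr212 an odorant receptor, Dnajb11 a chaperone of the endoplasmic reticulum and Ppp3ca a catalytic subunit of calcineurin.

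The longer Ctrl lists reach weaker peaks, so the libraries were also compared with an equal number of peaks within each batch, taken by the authors' −log10 q. With 983 peaks each, batch 1 had 619 marked genes in Ctrl and 672 in THC, of which 455 (2.1%) were in Ctrl only and 508 (2.35%) in THC only. The Hox genes were then marked in 30 cases in Ctrl and 27 in THC, and the other developmental transcription factor genes in 57 and 50. The covered length was 474 kb in Ctrl and 459 kb in THC. The presence of the mark at these genes was thus close to equal once list length was equal.

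Breadth at the shared genes kept its direction but was nearer to equal. Of the 25 Hox genes marked in both shortened lists, 20 were narrower and 5 wider in THC, with a median log2 ratio of −0.75. Of 34 other developmental transcription factor genes, 21 were narrower and 13 wider, with a median of −0.60. Over all 164 shared protein-coding genes, 106 were narrower and 55 wider, with a median of −0.39.

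With 70 peaks each, batch 2 had 37 marked genes in Ctrl, 22 (0.102%) of them in Ctrl only, and 30 in THC, 15 (0.0694%) of them in THC only. Hox genes were marked in 1 case in Ctrl (Hoxc13) and 0 in THC. Of the other developmental transcription factor genes, those marked in Ctrl included Dlx2, Pax6, Sox2, Nkx6-1, Barhl2 and Pou4f1, and those marked in THC were Dlx1 and Pitx1. The 65 genes of both Ctrl and neither THC library became 2 at equal list length, Barhl2 and Frmd4b, both named after their values were seen.

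**Figure D5:**
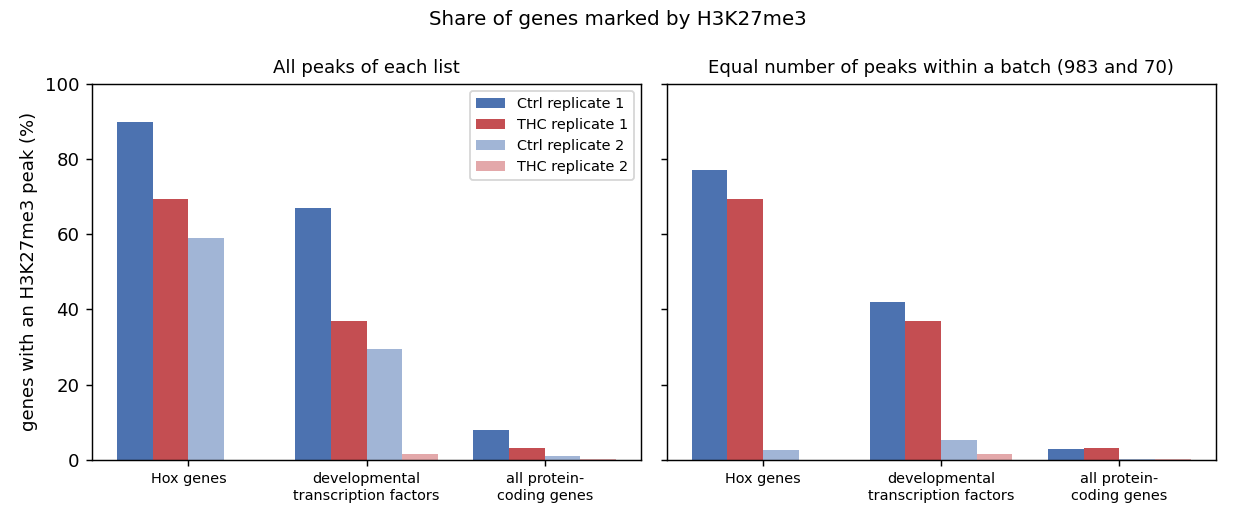
Percent of Hox genes, other developmental transcription factor genes and all protein-coding genes with an H3K27me3 peak, 1 bar per library, with all peaks (left) and with an equal number of peaks within each batch (right; 983 in batch 1 and 70 in batch 2). With all peaks 35 of 39 Hox genes are marked in Ctrl replicate 1 and 27 in THC replicate 1; at equal number the counts are 30 and 27.

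The breadth of the 377 regions marked in at least 2 libraries was tested with limma on log2(covered bp + 200), with the batch as a block and libraries centred on the 34 regions marked in all 4. No region was called at an adjusted p under 0.05 in either direction (0.0% wider and 0.0% narrower), and the smallest adjusted p was 0.0865. At an unadjusted p under 0.05, 83 regions (22.0%) were narrower and 4 (1.06%) wider in THC. The median log2 change over all 377 was −0.27. Most of these regions entered the test through Ctrl peaks, so a region seen in Ctrl alone had to come out narrower, and the counts at an unadjusted p are a description.

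The 26 tested regions at Hox genes had a median log2 change of −1.23, with 10 narrower and 0 wider at an unadjusted p under 0.05. The 63 regions at other developmental transcription factor genes had a median of −0.87, with 21 narrower and 0 wider. The 288 remaining regions had a median of −0.16, with 52 narrower and 4 wider. The decreases were larger at Hox and other developmental genes than in the rest, as a description without a test of the difference. Entry through Ctrl peaks fixes part of this contrast. THC replicate 2 had no peak at any Hox gene, and the rest include the 34 regions used for centring. Nothing is read from the difference.

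Among the genes named above, the region at Neurod2 had a log2 change of −2.88 (SE 0.52, adjusted p = 0.0865 by limma), that at Nkx6-1 −2.83 (SE 0.49) and that at Cdh2 −2.76 (SE 0.50), with the same adjusted p. In the other direction, Adk had 2.18 (SE 0.49, adjusted p = 0.0891) and Ceacam15 2.15 (SE 0.46, adjusted p = 0.0891). These regions were chosen by the same covered bp, with a peak in both libraries of a treatment and none in the other. Their changes and adjusted p are therefore a description and no support for a change. The changes are on the log2(covered bp + 200) scale, which limits their size where a library has no peak. With regions of a single library also admitted, 5 of 3616 regions passed the threshold, all narrower: those at Evx2, Uncx, Nkx6-1, Neurod2 and Zic2. Of the 3616 regions, 2361 were of Ctrl replicate 1 alone and so had to come out narrower, and the many values of 0 enter the shared estimate of the spread, so these calls are no support for a change.

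The regions marked in all 4 libraries were of another kind. There were 34, of which 16 lay near a protein-coding gene and 0 near a Hox gene or another gene of the developmental list. The strongest peaks of every list were among them. The region at chr9:123461786-123462193, by Lars2 (a mitochondrial tRNA synthetase gene), had a fold enrichment over background, as the authors' peak caller gives it, of 19.3 and 17.5 in Ctrl and 17.9 and 16.7 in THC. The region at chr3:5860346-5860824, with no gene within 5 kb, had 14.8 and 14.2 in Ctrl and 15.3 and 14.0 in THC. Both were nearly constant in strength and breadth in all 4 libraries.

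Of the 34 regions, 32 overlapped an H3K4me3 peak of at least 1 library and 19 overlapped all 6 H3K4me3 lists, although the H3K4me3 libraries used another antibody. In 14 the narrowest library had at least 0.8 of the covered length of the widest. The regions by Brox and Aida (460 and 443 bp in Ctrl, 460 and 438 bp in THC), by Cmss1 and Filip1l (437 and 418 bp, 399 and 409 bp) and by Lars2 (408 and 401 bp, 408 and 402 bp) were of similar breadth in all 4 libraries. The covered length at Tmem267 (1929 and 2542 bp in Ctrl, 3623 and 1052 bp in THC) and Sfi1 (2405 and 3331 bp, 7728 and 2814 bp) varied more. No list of regions of abnormal signal was used here, and mapping of these regions was not tested.

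Of protein-coding genes, 20 (0.0925%) were marked in all 4 libraries, and Pitx1 and Igf2bp1 among them are given here after their values were seen. Pitx1, a homeobox gene of the hindlimb and pituitary, had 899 bp in Ctrl replicate 1, 465 bp in Ctrl replicate 2, 245 bp in THC replicate 1 and 280 bp in THC replicate 2 (chr13:55825044-55836190). Igf2bp1, an mRNA-binding protein gene of fetal tissue, had 1955, 599, 516 and 370 bp in the same order (chr11:95957163-96005944). The THC values lay below both Ctrl values at each gene, as they also did by a smaller margin at Cmss1 and Filip1l. They did so too in the shared region at Thsd7b, with 468 and 442 bp in Ctrl and 238 and 365 bp in THC. Slc30a4 went the other way, with 544 and 608 bp in Ctrl and 855 and 657 bp in THC. No region marked in all 4 libraries lay at Pitx1, so its values come from peaks at different places within the gene and its flank.

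The 34 shared regions bear on THC replicate 2 most. They held 24.2 of its 36.2 kb, or 66.9%, against 30.7 of 1225 kb in Ctrl replicate 1, 27.9 of 199 kb (14.1%) in Ctrl replicate 2 and 34.2 of 459 kb (7.46%) in THC replicate 1. Outside them THC replicate 2 had 36 regions, of which 12 lay near a gene, while Ctrl replicate 2 had 350, with 219 near a gene. No Hox gene was marked in THC replicate 2, so the statement that a gene was in neither THC library adds little to its absence from THC replicate 1.

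H3K4me3 lay under a larger share of the H3K27me3 peaks in THC replicate 2 than elsewhere. The share of H3K27me3 peaks that overlapped an H3K4me3 peak of the same treatment and replicate number was 26.1% and 17.9% in Ctrl and 28.3% and 71.4% in THC. The THC values were both above the Ctrl values, with a difference of means of 27.8 percentage points (exact permutation test, p = 0.333, the smallest that 2 against 2 libraries allow). In SR2 replicates 1 and 2 the share was 44.3% and 33.8%, also above both Ctrl values and above THC replicate 1. A higher share than in Ctrl was thus not particular to THC. Without THC replicate 2 the difference was 6.27 points, and outside the 34 shared regions the share of regions over H3K4me3 was 25.7% and 13.7% in Ctrl and 26.7% and 58.3% in THC.

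At the genes themselves, H3K4me3 within 1 kb of the gene was less frequent in the THC libraries for the developmental list. Of the 136 developmental transcription factor genes outside Hox, 59 and 48 had an H3K4me3 peak in the Ctrl libraries, and 19 and 26 in the THC libraries. Of all protein-coding genes, 61.4% and 59.2% had one in Ctrl and 51.4% and 55.2% in THC. Among the 65 genes that had H3K27me3 in both Ctrl and neither THC library, 63.1% and 53.8% had H3K4me3 in Ctrl, and 33.8% and 36.9% in THC. The share was also lower in THC at the 79 genes that had H3K27me3 in THC replicate 1 as well, with 45.6% and 39.2% in Ctrl and 22.8% and 25.3% in THC, and in SR2 it was 49.2% in both libraries at the 65 genes. At the 79 genes it was 34.2% in both SR2 libraries, and over all protein-coding genes it was 56.9% and 58.3% in SR2. The share was thus below both Ctrl values in THC and in SR2, at both classes of genes and over all genes. A lower share than in Ctrl was not particular to THC. Hox genes had almost no H3K4me3, with 4 and 1 of 39 in Ctrl and 1 and 0 in THC.

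Genes tied to the study's title were marked at a few members each, to be read against the 8.01% and 1.12% of all protein-coding genes marked in Ctrl replicates 1 and 2 and the 3.11% and 0.139% in THC replicates 1 and 2. Of 15 cannabinoid receptor and endocannabinoid enzyme genes, only Cnr1, the neuronal cannabinoid receptor, had a peak, of 327 bp in Ctrl replicate 1, a share of 6.67%. Of 18 luminal hormone-sensing genes, 3 were marked in Ctrl replicate 1, 1 in Ctrl replicate 2, 1 in THC replicate 1 and 0 in THC replicate 2, or 16.7%, 5.56%, 5.56% and 0%. Foxa1, the pioneer factor of oestrogen receptor binding, had 1448 and 456 bp in the Ctrl libraries and 0 bp in both THC and both SR2 libraries (chr12:57540628-57548029). Esr1, the oestrogen receptor gene, had 409 bp in Ctrl replicate 1 alone, and Xbp1 had 340 bp in THC replicate 1 alone.

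Lists of plasticity and signalling had few marked genes, given beside the shares over all protein-coding genes (8.01%, 1.12%, 3.11% and 0.139% in Ctrl replicates 1 and 2 and THC replicates 1 and 2). Of 46 Wnt and Notch genes, 7 (15.2%) were marked in Ctrl replicate 1, 1 (2.17%) in Ctrl replicate 2 and 0 in both THC libraries, and of 40 genes for BMP, TGF-beta, FGF and hedgehog ligands and antagonists, 6 (15.0%), 0, 0 and 0 were. With 3.11% of all genes marked in THC replicate 1, a count of 0 in lists of this size is near that share, and nothing is read from it. Of 24 genes of epithelial-mesenchymal transition, 3 were marked in Ctrl replicate 1, 1 in Ctrl replicate 2, 2 in THC replicate 1 and 0 in THC replicate 2. Cdh2 is given above, and Twist1, which drives the transition, had 1509 bp in Ctrl replicate 1 and 935 bp in THC replicate 1. Of 20 luminal progenitor genes 1 was marked, in Ctrl replicate 2, and of 20 basal genes 3, in Ctrl replicate 1. Of the regions of Ctrl replicate 1, 6.87% recurred in Ctrl replicate 2, so single peaks of that library are given as they are listed and no more.

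Genes of the Polycomb machinery carried the mark as well. Of 31 measured, 6 (19.4%) were marked in Ctrl replicate 1, 3 (9.68%) in Ctrl replicate 2, 3 (9.68%) in THC replicate 1 and 0 in THC replicate 2, beside 8.01%, 1.12%, 3.11% and 0.139% of all protein-coding genes. Cbx8, a subunit of Polycomb repressive complex 1, had 1544 and 346 bp in Ctrl and 499 and 0 bp in THC. Cbx2 had the same 346 bp in Ctrl replicate 2. A peak within 5 kb of neighbouring genes counts for each of them, so the 3 genes of that library may hold fewer separate peaks. Jarid2, a cofactor of Polycomb repressive complex 2, had 450 and 411 bp in Ctrl and 422 and 0 bp in THC, and was thus slightly narrower in THC in batch 1. Of 21 sterol and lipid metabolism genes, 2 and 1 were marked in Ctrl (9.52% and 4.76%) and 4 and 1 in THC (19.05% and 4.76%), each by 482 bp or less.

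Active genes had few marks, but the lists are too short to set them apart from all genes. Of 20 housekeeping genes 1 (Ppia, 277 bp; 5% beside 8.01% of all protein-coding genes) had a peak in Ctrl replicate 1, and 0 had one in the other 3 libraries, where 1.12%, 3.11% and 0.139% of all genes did. Of 15 genes for epithelial cadherins and keratins, active in epithelial tumours, 0 had a peak in any of the 4 libraries. Of 7 luminal markers, 7 and 6 had H3K4me3 in Ctrl and 4 and 6 in THC, and of 5 basal markers 3 and 3 in Ctrl and 0 and 3 in THC. Endothelial markers had H3K4me3 at 2 and 2 of 5 genes in Ctrl and 0 and 0 in THC, blood markers at 1 and 1 of 6 in Ctrl and 0 and 1 in THC, and fibroblast markers at 3 and 2 of 7 in Ctrl and 3 and 2 in THC. Neural markers had H3K4me3 at 5 and 2 of 5 genes in Ctrl and 2 and 2 in THC. Adipocyte markers had it at 3 and 3 of 5 in Ctrl and 0 and 2 in THC. Muscle markers had it at 1 and 1 of 3 in Ctrl and 0 and 1 in THC. Of all protein-coding genes, 61.4% and 59.2% had H3K4me3 in Ctrl and 51.4% and 55.2% in THC. These short lists therefore do not tell cell types apart. The part of cell composition in the H3K27me3 values was not tested. Pparg, a regulator of adipocytes, had 817 and 1018 bp of H3K27me3 in Ctrl and none in THC or SR2.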

How the data were processed

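Per the labels' protocols, CUT&Tag took 500000 cells per sample, tagmented for 60 min and sequenced in pairs of 150 bp; they name Accutase for dissociation where the design text of the series names collagenase and TrypLE. The submitters' processing notes list cutadapt 5.2, Bowtie2 2.5.4, Picard, SAMtools 1.8, deepTools, MACS3, bedtools and mm10, with no role or order. The authors deposited 1 list of broad peaks per library, called per sample as the peak names show, with a score, a fold enrichment (a ratio to background), −log10 p and −log10 q for each peak, and every listed −log10 q was at least 1.00. Peaks off chromosomes 1 to 19 and X (18 and 15 in Ctrl, 34 and 13 in THC) were left out. Read counts are not among the values, so covered bp was used, and the depth stands only behind the background pileup solved from fold and −log10 p.

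Genes came from RefSeq (GRCm38.p6, the assembly of mm10), with 21627 protein-coding genes, and 550 of the 554 list symbols matched. Regions were merged at 1 bp of overlap, and genes had 5 kb of flank. Library values were compared by exact permutation tests, and the breadth of regions marked in at least 2 libraries by limma 3.58.1 (R 4.3.3). The fit used trend, a pseudocount of 200 bp, the batch as a block and Benjamini-Hochberg adjustment at 0.05. It was tried on simulated data first, in which every library covered every region and no centring was used. That trial therefore does not cover regions with no peak in a library. Other steps used Python 3.11.15, pandas 2.3.3, NumPy 2.4.6, SciPy 1.17.1 and Matplotlib 3.10.9. The block rests on the labels, which give the replicate number as the batch. Deviations of the same-numbered Ctrl and THC libraries correlated at 0.17 over 377 regions.

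The members and the gene lists were chosen with earlier results of these data known. Named genes were list genes marked in both libraries of a treatment (up to 4 with the most covered bp for long lists), the 10 broadest of each direction, 12 of all 4 libraries, those at the 3 strongest peaks per list and the 5 broadest of each treatment in batch 1, without predicted or clone-named genes. Genes added later are said to be. Alternatives varied the peak threshold, list length, flank, overlap, merging, pseudocount, centring, filter, block and libraries.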

Additional observations from a re-analysis of the deposited data

How the results depend on the processing

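The peak lists hold no read counts, so breadth and presence move with list length, and 2 libraries per treatment cannot give an exact p under 0.333. Leaving out 1 library in turn gave a THC to Ctrl ratio of 0.0452 to 1.36 for peak number and 0.0508 to 1.25 for covered length. The values above 1 came without Ctrl replicate 1. The covered length ratio was 0.965 at equal list length within a batch. That setting makes peak number equal, and peaks were of similar length, so it largely fixes this ratio in advance.

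Regions in both Ctrl and neither THC library numbered 18 with −log10 q of at least 2, 7 at equal list length and 81 to 2435 with 1 library left out. Their genes numbered 14, 2 and 68 to 1445 under the same settings. Both maxima came without Ctrl replicate 2. Regions in both THC and neither Ctrl library numbered 2 with −log10 q of at least 2 and 5 to 704 with 1 library left out. Their genes numbered 0 with −log10 q of at least 2, 1 with no flank, 1 with 1 kb of flank, and 2 to 381 with 1 library left out. Regions in all 4 numbered 35 to 105 and genes 20 to 99 with 1 left out. These maxima came without THC replicate 2. Fewer libraries make each class easier to enter. The other settings kept these counts within 1.5 times.

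By limma, no region was called with no replicate block (0 wider and 0 narrower; 4 and 74 at an unadjusted p under 0.05), and the block changed no call. Admitting regions of 1 library gave 5 narrower of 3616. With 3 libraries the batch block leaves no residual degrees of freedom, so each library was left out with no block, an alternative chosen after seeing the data in which the lone library is assumed to vary like the others. It gave 0 to 11 wider and 0 to 53 narrower regions, the maxima without Ctrl replicate 2, with 15 narrower without THC replicate 1 and 2 wider without THC replicate 2. The cause was not tested. The sign of the 11 regions of named genes is fixed by their choice (a peak in both libraries of 1 treatment and none in the other) and says nothing of stability.

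The H3K4me3 share difference was 6.27 to 49.4 points with 1 library left out.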

Other observations

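Of the genes outside the lists that had H3K27me3 in both Ctrl libraries and in THC replicate 1, the 10 broadest were Sp8, Ebf3, Lbx1, Pou3f2, Sp9, Zdbf2, Tenm3, Prdm12, Asic4 and Foxd1. They were chosen after their values were seen and belong to no list. Sp8, a zinc finger gene of limb outgrowth, had 2226 bp in Ctrl replicate 1, 2068 bp in Ctrl replicate 2, 1367 bp in THC replicate 1 and 0 bp in THC replicate 2. Ebf3 had 3248, 1044, 644 and 0 bp in the same order, Lbx1, a muscle precursor and spinal cord homeobox gene, 2902, 1303, 994 and 0 bp, and Pou3f2, a neural POU factor gene, 3119, 569, 638 and 0 bp. At these 4 the THC library was narrower than Ctrl in batch 1 and had no peak in batch 2.

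Zdbf2, an imprinted gene, had 2248, 377, 773 and 0 bp in the same order, Tenm3, a cell adhesion gene of neurons, 2132, 453, 750 and 0 bp, and Asic4, of the acid-sensing ion channel family, 991, 1338, 601 and 0 bp. Prdm12, a gene of pain-sensing neurons, and Foxd1, a forkhead gene of kidney stroma, were wider in THC in batch 1. Prdm12 had 1290 bp in Ctrl replicate 1 and 1474 bp in THC replicate 1, and Foxd1 had 1755 and 1889 bp. In batch 2 they had 1167 and 431 bp in Ctrl and none in THC.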
